A study of Rattus norvegicus with 4 samples.

Results

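The mitotic entry switch, the set of kinases and phosphatases that turns CDK1 on at the end of G2, was followed in neonatal rat cardiomyocytes transfected with the miRNAs of the miR-106b, miR-93 and miR-25 cluster. The genes were chosen by name and for their roles, with earlier results of these data known. They were Cdk1, Ccnb1, Ccnb2, Cdc25a, Cdc25b, Cdc25c, Plk1 and Aurka, which promote CDK1 activity, and Wee1 and Pkmyt1, which inhibit it. Of these 10 genes, 9 were listed among the 15731 genes of the deposited values, 7 promoting and 2 inhibiting members. The transcript level of Ccnb2 was not analysed here. All 9 listed members had an RPKM above 1.0 in each of the 4 libraries, so none was lost to the filter on low values.

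The cultures were ventricular cardiomyocytes of wild type Wistar rats at postnatal day 1, isolated after the atria had been removed. They were transfected with a synthetic mimic of human miR-106b-5p, miR-93-5p or miR-25-3p, or of cel-miR-67, a worm miRNA that served as the control, and RNA was harvested 72 h later. One field of the labels gives the dose as 25 nM and another gives the same figure in mM, and the labels give the age of the hearts as day 0 in one place and day 1 in others. Each mimic gave 1 library, all 3 comparisons share the cel-miR-67 library, and the number of animals behind a culture is not stated. No difference therefore has a replicate check, no test between conditions was possible, and the intervals given here cover counting error only.

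CDK1 bound to cyclin B is the kinase that drives a cell from G2 into mitosis. The complex is held inactive by inhibitory phosphates that WEE1 and PKMYT1 place on CDK1, and the CDC25 phosphatases remove them. Active CDK1 in turn activates CDC25 and restrains WEE1, which makes entry switch-like, and Aurora A, encoded by Aurka, helps to start it by activating PLK1. Rodent cardiomyocytes withdraw from the cell cycle in the days after birth, and much of the switch is set by phosphorylation and protein breakdown, which RNA levels do not show.

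The mature rat counterparts of the 3 transfected miRNAs are shown for their seeds, the stretch of bases that pairs with target RNAs, which miR-25 does not share with the other two. Sequences are from RefSeq (GRCr8), where the 3 miRNAs lie on the minus strand of chromosome 12 at chr12:22157103-22157123, chr12:22156894-22156916 and chr12:22156652-22156673, and capitals mark the seed, bases 2 to 8.
rno-miR-106b-5p: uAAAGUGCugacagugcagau
rno-miR-93-5p: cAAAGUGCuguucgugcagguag
rno-miR-25-3p: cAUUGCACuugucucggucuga
miR-106b and miR-93 share the seed AAAGUGC, and miR-25 has the seed AUUGCAC.

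Promoter windows from RefSeq, which run from 250 bases before to 50 bases after the start of a gene, were matched for 8 of the 10 members. Neither inhibiting member, Wee1 or Pkmyt1, had one. The 250 bases before the start are shown for Cdk1 and Ccnb1, the kinase and its cyclin, and for Plk1 and Aurka, which moved in the same direction as Cdk1 with each mimic. They lie in GRCr8 at chr20:19265043-19265292 (plus strand) for Cdk1, chr2:33655226-33655475 (minus strand) for Ccnb1, chr1:186147408-186147657 (plus strand) for Plk1 and chr3:181560770-181561019 (minus strand) for Aurka. Capitals mark exact matches, on either strand, to CCAAT, the box bound by NF-Y, and to TTTGGCG or TTTCGCG, letters bound by E2F factors. They also mark TTTGAA or TTCGAA, the only forms of the cell cycle homology region (CHR) that were searched. Other forms of the CHR would not be marked.
Cdk1: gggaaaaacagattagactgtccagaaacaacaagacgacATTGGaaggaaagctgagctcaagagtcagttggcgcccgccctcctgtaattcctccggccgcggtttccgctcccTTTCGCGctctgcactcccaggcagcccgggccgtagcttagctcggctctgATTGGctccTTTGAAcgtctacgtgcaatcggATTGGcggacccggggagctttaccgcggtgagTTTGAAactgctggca
Ccnb1: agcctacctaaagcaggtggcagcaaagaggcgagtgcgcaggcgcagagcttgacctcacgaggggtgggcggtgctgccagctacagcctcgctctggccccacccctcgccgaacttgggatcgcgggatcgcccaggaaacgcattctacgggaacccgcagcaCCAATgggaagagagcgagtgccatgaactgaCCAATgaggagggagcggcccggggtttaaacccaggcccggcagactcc
Plk1: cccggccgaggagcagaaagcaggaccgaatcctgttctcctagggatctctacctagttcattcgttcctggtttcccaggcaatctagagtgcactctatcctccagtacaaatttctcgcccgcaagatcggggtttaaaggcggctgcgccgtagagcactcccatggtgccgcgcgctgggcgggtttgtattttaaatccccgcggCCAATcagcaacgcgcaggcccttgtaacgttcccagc
Aurka: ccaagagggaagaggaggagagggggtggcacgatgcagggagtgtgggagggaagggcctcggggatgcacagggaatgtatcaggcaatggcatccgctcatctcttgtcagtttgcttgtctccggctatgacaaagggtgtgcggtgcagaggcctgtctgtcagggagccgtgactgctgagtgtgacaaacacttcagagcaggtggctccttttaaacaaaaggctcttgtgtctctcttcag

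The window of Cdk1 held 3 CCAAT boxes, 2 CHR matches, which begin 72 and 16 bases before the start, and the E2F letters TTTCGCG. Ccnb1 held 2 CCAAT boxes, 82 and 50 bases before the start, and no match to the CHR forms searched, which leaves other forms unchecked. Ccnb2 held 3 CCAAT boxes and 2 CHR matches, which begin 214 and 43 bases before the start. In Plk1 a CCAAT box lay 38 bases before the start, and a CHR match lay 6 bases after it, outside the printed stretch. Aurka held none of the letters searched. Among the CDC25 genes, Cdc25a held 1 CCAAT box and the E2F letters TTTGGCG, Cdc25b held 1 CCAAT box and 1 CHR match, and Cdc25c held 4 CCAAT boxes and 1 CHR match. No matches overlapped in these windows. Of all 33469 promoter windows of the same length, 37.5% held a CCAAT box, 19.7% a CHR match and 2.21% one of the E2F motifs.

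Reads on listed genes numbered from 15182547 in the control to 18808789 after miR-106b, at least 60.4% of the library size behind the RPKM values. RPKM, a read count scaled to gene length and library size, puts genes of different length on one scale. The whole reads behind each value were recovered from the RPKM steps, and the 9 members held at most 2361 reads in a library, those of Cdk1 after miR-106b. As the label says, cardiomyocyte markers were abundant in all libraries: 7 of 7 were listed, and their summed RPKM was 11162 after miR-106b, 8567 after miR-93, 8868 after miR-25 and 14206 in the control. Fibroblast markers summed to 317 to 821 and smooth muscle markers to 583 to 2051, while the 4 listed of 5 endothelial markers summed to 2.41 to 3.13 and 4 macrophage markers to 3.52 to 7.58. None of these markers was at 0 in any library. In such bulk RNA, fewer cells of a type and less RNA per cell cannot be told apart.

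Plk1 and Aurka were higher after miR-106b and miR-93 and lower after miR-25, Ccnb1 was higher after the first 2 mimics, and Wee1 was lower after all 3. After miR-106b, 4 promoting members passed the 1.3-fold cutoff upward (Cdk1, Ccnb1, Plk1 and Aurka), where 11.9% of the 11296 genes tested did, and 1 inhibiting member, Wee1, passed it downward, where 12.7% of genes did. After miR-93, Ccnb1, Plk1 and Aurka passed it upward, against 15.1% of 11280 genes, and Wee1 again downward, against 15.6%. After miR-25 no member passed it upward, against 19.3% of 11198 genes. Downward, 6 of the 9 did after miR-25, 4 promoting (Cdk1, Cdc25b, Plk1 and Aurka) and 2 inhibiting (Wee1 and Pkmyt1), against 22.6% of genes. The median log2 fold change of the 9 members over cel-miR-67 was 0.33 after miR-106b, 0.17 after miR-93 and -0.64 after miR-25, while that of all tested genes was -0.003, -0.002 and -0.01.

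Cdk1 (ENSRNOG00000000632), the kinase at the centre of the switch, was the most abundant member in the control library. Its RPKM was 37.3 after miR-106b, 29.8 after miR-93, 8.93 after miR-25 and 23.7 in the control. The counting intervals of these 4 levels did not overlap, so the libraries ran in the order miR-106b, miR-93, cel-miR-67 and miR-25. Against the control Cdk1 was 1.57-fold higher after miR-106b (log2 fold change 0.65, 95% exact interval 0.55 to 0.76). After miR-93 it stayed below the cutoff at 1.25-fold (0.33, 0.22 to 0.44), though it passed the cutoff at 0.47 when scaled to reads on listed genes, and after miR-25 it was 2.66-fold lower (-1.41, -1.56 to -1.26). RefSeq lists pseudogene copies of Cdk1 and of Aurka, and how the counting treated reads shared with them is not given in the sources used here.

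Ccnb1 (ENSRNOG00000058539), which encodes cyclin B1, the partner that CDK1 needs for activity, had the largest fold change of the 9 members after miR-106b and after miR-93. Its RPKM was 46.1 after miR-106b, 36.9 after miR-93, 10.2 after miR-25 and 10.4 in the control. The miR-25 and control levels overlapped in their counting intervals, 9.24 to 11.2 and 9.36 to 11.5, and both other libraries stood far above them. The rise was 4.44-fold after miR-106b (log2 fold change 2.15, 1.99 to 2.31) and 3.56-fold after miR-93 (1.83, 1.67 to 2.00). Only 2 of the 11296 tested genes had a higher fold change after miR-106b, and 22 of 11280 after miR-93. After miR-25, where Cdk1 was lower, the log2 fold change of Ccnb1 was -0.03 (-0.23 to 0.17).

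**Figure D1:**
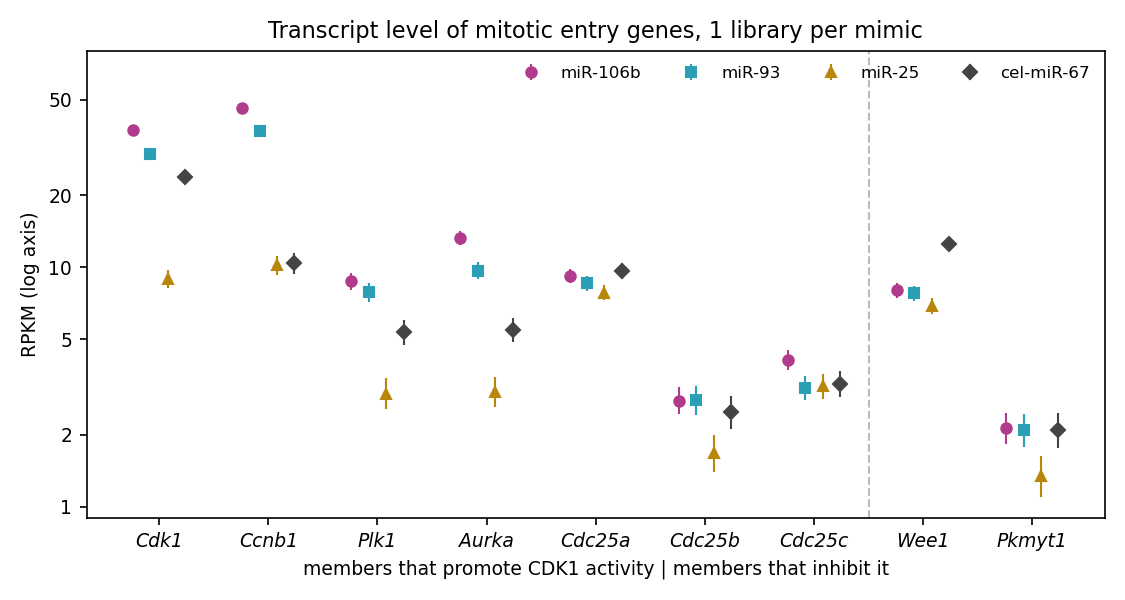
Transcript level (RPKM, log axis) of the 9 listed members in the 4 libraries, 1 library per mimic; bars are exact 95% Poisson intervals of the recovered reads. Ccnb1 stood at 46.1 and 36.9 after miR-106b and miR-93 and at 10.2 and 10.4 after miR-25 and cel-miR-67, whereas Wee1 was at 12.5 in the control and between 6.89 and 8.01 with the mimics.

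The kinases upstream of the switch shared the direction of Cdk1. Aurka (ENSRNOG00000004479) had an RPKM of 13.2 after miR-106b, 9.67 after miR-93, 3.02 after miR-25 and 5.48 in the control. It was 2.42-fold higher after miR-106b (log2 fold change 1.27, 1.08 to 1.47), 1.77-fold higher after miR-93 (0.82, 0.62 to 1.02) and 1.82-fold lower after miR-25 (-0.86, -1.13 to -0.59). All 4 libraries were apart in their counting intervals. Plk1 (ENSRNOG00000018815), the kinase that promotes CDC25 activation and WEE1 breakdown, had an RPKM of 8.76, 7.87, 2.97 and 5.36 in the same order. The miR-106b and miR-93 levels of Plk1 overlapped, at 1.63-fold (0.71, 0.50 to 0.92) and 1.47-fold (0.55, 0.34 to 0.77) above the control, and the miR-25 level was 1.81-fold lower (-0.85, -1.13 to -0.58).

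The CDC25 phosphatases moved less than Cdk1, Plk1, Aurka and Wee1 with each mimic. Cdc25a (ENSRNOG00000020737), which also acts at the start of S phase, was the most abundant of the 3, with an RPKM of 9.21 after miR-106b, 8.58 after miR-93, 7.82 after miR-25 and 9.65 in the control. Its log2 fold changes were -0.07 (-0.21 to 0.07), -0.17 (-0.32 to -0.02) and -0.30 (-0.45 to -0.15) in that order of mimics, and none passed the cutoff. Cdc25b (ENSRNOG00000021248), a phosphatase thought to act early in mitotic entry, had an RPKM of 2.78, 2.79, 1.68 and 2.48 in the order miR-106b, miR-93, miR-25 and cel-miR-67. Only the miR-25 library stood apart for Cdc25b, 1.47-fold below the control (log2 fold change -0.56, -0.91 to -0.21). Cdc25c (ENSRNOG00000024008), the form that PLK1 and CDK1 phosphorylate at entry, had an RPKM of 4.11, 3.14, 3.19 and 3.26 in that order. Here the miR-106b library was the high one, at 1.26-fold above the control (0.33, 0.10 to 0.57), which is under the cutoff. The log2 fold changes of Cdc25c after miR-93 and miR-25 were -0.06 (-0.31 to 0.20) and -0.03 (-0.28 to 0.22).

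The brakes on CDK1 differed from each other. Wee1 (ENSRNOG00000010017), the nuclear inhibitory kinase, had an RPKM of 8.01 after miR-106b, 7.78 after miR-93, 6.89 after miR-25 and 12.5 in the control. The control library alone was high, and the 3 mimic libraries lay close together. Wee1 was 1.56-fold lower after miR-106b (log2 fold change -0.64, -0.78 to -0.50), 1.61-fold lower after miR-93 (-0.68, -0.83 to -0.54) and 1.81-fold lower after miR-25 (-0.86, -1.01 to -0.71). Pkmyt1 (ENSRNOG00000003657), the membrane-bound inhibitory kinase, was the least abundant member in every library, with an RPKM of 2.12, 2.09, 1.34 and 2.09 in the same order. Its levels after miR-106b and miR-93 were those of the control within counting error, at 0.03 (-0.30 to 0.36) and -0.00 (-0.34 to 0.34), and after miR-25 it was 1.55-fold lower (-0.64, -1.02 to -0.26). The intervals of Pkmyt1 are wide because it held at most 183 reads in a library.

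**Figure D2:**
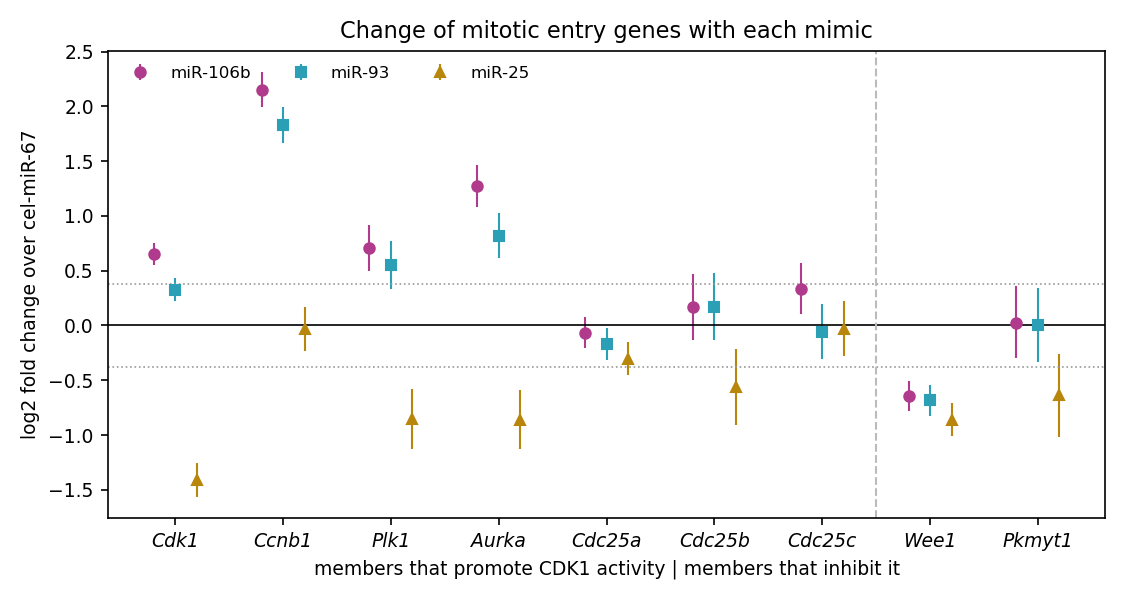
Log2 fold change of the deposited RPKM over cel-miR-67 for the 9 listed members with each mimic; bars are exact 95% counting intervals, dotted lines the 1.3-fold cutoff. Wee1 lay below the cutoff with all 3 mimics, at -0.64, -0.68 and -0.86, while Cdk1, Plk1 and Aurka were above 0 after miR-106b and miR-93 and below it after miR-25.

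Averaged over the arms, the 7 promoting members had a mean log2 fold change of 0.75 after miR-106b, 0.50 after miR-93 and -0.58 after miR-25. The mean of the 2 inhibiting members was -0.31, -0.34 and -0.75. It joined Wee1 at -0.64, -0.68 and -0.86 with Pkmyt1 at 0.03, -0.00 and -0.64. After miR-106b and miR-93 the inhibiting mean thus came from Wee1. The promoting arm thus stood above the inhibiting arm by 1.05 after miR-106b and 0.84 after miR-93, and by 0.17 after miR-25, where both arms were lower than in the control. Without Ccnb1 the differences were 0.82, 0.62 and 0.08. After miR-25 Cdc25c and Ccnb1 were both at -0.03, and leaving out members other than Ccnb1 was not tried. Individual promoting members ranged from -0.07 to 2.15 after miR-106b, from -0.17 to 1.83 after miR-93 and from -1.41 to -0.03 after miR-25.

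Beside the miR-25 values stand shifts in the cell type markers. All 7 cardiomyocyte markers and 7 of 8 fibroblast markers passed the cutoff downward after miR-25, and 4 of 4 smooth muscle markers passed it upward, with summed smooth muscle RPKM of 2051 against 745 in the control. After miR-106b and miR-93, 4 and 3 cardiomyocyte markers and 5 and 4 fibroblast markers passed it downward. In both, 1 cardiomyocyte marker, Tnni3, passed it upward (0.63 and 0.49). After miR-25 Tnni3 was at -4.47, with an RPKM of 15.9 against 351 in the control. Of the smooth muscle markers, 1 passed the cutoff upward and 1 downward after miR-106b, and 0 and 2 after miR-93. All tested genes passed it upward and downward at 11.9% and 12.7% after miR-106b, 15.1% and 15.6% after miR-93, and 19.3% and 22.6% after miR-25. The part of these shifts in the members' changes was not tested.

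The order of the members by level was re-arranged between libraries. In the control it ran Cdk1, Wee1, Ccnb1, Cdc25a, Aurka, Plk1, Cdc25c, Cdc25b and Pkmyt1. With counting error alone, Ccnb1 and Cdc25a were not separable there, nor were Aurka and Plk1, Cdc25c and Cdc25b, or Cdc25b and Pkmyt1. After miR-106b and after miR-93 the order was Ccnb1, Cdk1, Aurka, Cdc25a, Plk1, Wee1, Cdc25c, Cdc25b and Pkmyt1, which placed Ccnb1 first and Wee1 sixth. The neighbours Cdc25a, Plk1 and Wee1 overlapped from neighbour to neighbour in these libraries, as did Cdc25b and Pkmyt1, and after miR-93 so did Aurka with Cdc25a and Cdc25c with Cdc25b. After miR-25 the order was Ccnb1, Cdk1, Cdc25a, Wee1, Cdc25c, Aurka, Plk1, Cdc25b and Pkmyt1. The first 4 of these overlapped from neighbour to neighbour, as did Cdc25c, Aurka and Plk1, and Cdc25b with Pkmyt1.

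The ratio of activator to brake within a library does not depend on the library size. The RPKM ratio of Cdk1 to Wee1 was 4.66 after miR-106b, 3.83 after miR-93, 1.296 after miR-25 and 1.90 in the control. Relative to the control it changed on the log2 scale by 1.29 (1.12 to 1.47), 1.01 (0.83 to 1.19) and -0.55 (-0.76 to -0.34). The ratio was thus higher than in the control library after miR-106b and miR-93 and lower than in it after miR-25. The ratio of Ccnb1 to Wee1 was 5.76, 4.74, 1.48 and 0.83 in the same order, and it was higher than in the control with each mimic, with log2 changes of 2.79 (2.58 to 3.01), 2.51 (2.29 to 2.73) and 0.83 (0.58 to 1.08). Aurka and Plk1 fell by the same amount as Wee1 after miR-25 within counting error. Their ratios to Wee1 changed there by -0.00 (-0.31 to 0.31) and 0.01 (-0.31 to 0.32), against 1.92 and 1.35 after miR-106b. The ratio of Cdc25a to Wee1, the phosphatase to the kinase it opposes, was 1.15, 1.10, 1.14 and 0.77, so it was alike in the 3 mimic libraries and lower in the control.

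Against Pkmyt1, the ratio of Cdk1 was 17.6 after miR-106b, 14.3 after miR-93, 6.65 after miR-25 and 11.4 in the control. The log2 changes were 0.63 (0.28 to 0.97), 0.33 (-0.03 to 0.68) and -0.77 (-1.18 to -0.36), the same signs as against Wee1.

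Cdk1 and its cyclin did not keep one ratio. The RPKM ratio of Ccnb1 to Cdk1 was 1.24 after miR-106b, 1.24 after miR-93, 1.14 after miR-25 and 0.44 in the control. The 3 mimic libraries differed from each other by no more than counting error, at 0.00 (-0.13 to 0.13) on the log2 scale for miR-93 over miR-106b and -0.12 (-0.32 to 0.08) for miR-25 over miR-106b, and the control stood 1.38 or more below them. Against Mki67, a proliferation marker whose pattern was among the most like that of Cdk1, Cdk1 kept 1 ratio and Ccnb1 did not, and the first of these follows from that likeness. The ratio of Cdk1 to Mki67 was 1.09, 1.10, 1.13 and 1.11 in the order miR-106b, miR-93, miR-25 and cel-miR-67, whereas that of Ccnb1 to Mki67 was 1.35, 1.36, 1.28 and 0.48. Aurka followed Ccnb1 in part, with ratios to Mki67 of 0.39, 0.36, 0.38 and 0.26. Plk1 did not, with ratios of 0.26, 0.29, 0.38 and 0.25, the miR-25 library being the high one. A low Ccnb1 level in the 1 control culture and a rise of Ccnb1 relative to Cdk1 shared by all 3 mimics cannot be told apart, and the same holds for the high Wee1 level of the control.

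**Figure D3:**
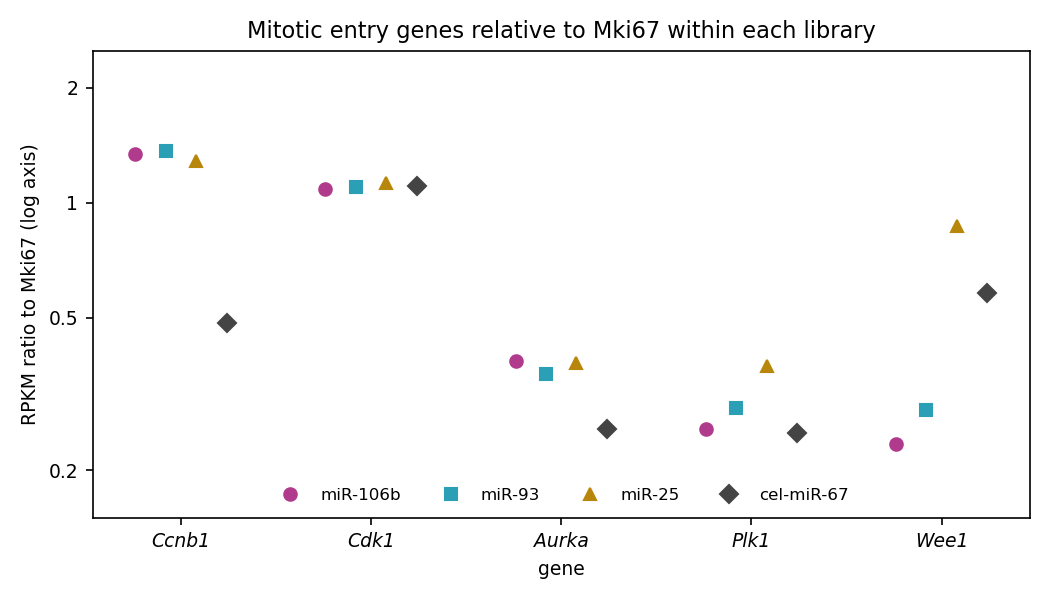
RPKM ratio of Ccnb1, Cdk1, Aurka, Plk1 and Wee1 to Mki67 within each library (log axis), 1 point per library. The ratio of Cdk1 lay between 1.09 and 1.13 in all 4, that of Ccnb1 at 1.28 to 1.36 with the mimics and 0.48 in the control, and that of Wee1 ran from 0.23 after miR-106b to 0.87 after miR-25.

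Comparing the mimics directly leaves the control library out. miR-25 against miR-106b gave log2 fold changes of -2.18 (-2.33 to -2.03) for Ccnb1, -2.13 (-2.36 to -1.91) for Aurka, -2.06 (-2.20 to -1.92) for Cdk1 and -1.56 (-1.81 to -1.32) for Plk1. The values of Ccnb1, Aurka and Cdk1 overlapped in their intervals, and Plk1 differed by less: its ratio to Cdk1 was higher after miR-25 than after miR-106b by 0.50 (0.21 to 0.78) on the log2 scale. The gap was smaller for Cdc25b at -0.73 (-1.05 to -0.41) and Pkmyt1 at -0.66 (-1.02 to -0.31). It was smallest for Cdc25c, Cdc25a and Wee1, at -0.37, -0.24 and -0.22. miR-93 against miR-106b, the pair with the same seed, gave -0.45 (-0.60 to -0.31) for Aurka, -0.39 (-0.61 to -0.17) for Cdc25c, -0.32 (-0.41 to -0.23) for Cdk1 and -0.32 (-0.42 to -0.23) for Ccnb1. For the other members the miR-93 and miR-106b libraries were not separable at this depth, with Wee1 at -0.04 (-0.19 to 0.11) and Plk1 at -0.15 (-0.33 to 0.02).

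The genes nearest in pattern were found by the Euclidean distance of the 3 log2 fold changes over 10700 genes with an RPKM above 1.0 in all 4 libraries. For Cdk1 these were Spag5 (distance 0.03), Mki67 (0.04), Ns5atp9 (0.08), Kifc1 (0.09) and Cenpe (0.10), of which Spag5, Kifc1 and Cenpe encode proteins of the spindle or its attachment to chromosomes. Ccnb1 had no close neighbour: the nearest were AABR07025328.1 (0.61), Doc2g (0.68), Mdk (0.82), Asb4 (0.86) and Spc24 (0.87). Of these, Spc24 encodes a kinetochore protein. Few genes lay as high as Ccnb1, with 2 tested genes above it after miR-106b and 22 after miR-93. Distances around other genes with such large changes were not compared. For Wee1 the nearest were Ncam1 (0.05), Msra (0.06), Il4r (0.07), Leap2 (0.09) and Col5a2 (0.09), among them a cell adhesion gene and a collagen gene. The fold changes behind these distances share the control library.

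Set beside 20 genes of mitosis, such as spindle and kinetochore genes, the members split. The median log2 fold change of the mitosis genes was 0.68 after miR-106b, 0.34 after miR-93 and -1.07 after miR-25. Past the cutoff were 18, 9 and 0 of the 20 upward and 0, 0 and 18 downward. Of all tested genes, 11.9%, 15.1% and 19.3% passed it upward and 12.7%, 15.6% and 22.6% downward after miR-106b, miR-93 and miR-25. Cdk1 lay inside the range of the mitosis genes in each comparison. Ccnb1 lay above all 20 with each mimic, and Aurka above 19 of 20 after miR-106b and after miR-93. Wee1 and Cdc25a lay below all 20 after miR-106b and after miR-93, as did Pkmyt1 and Cdc25b after miR-106b. After miR-25 Cdc25c also lay above all 20, and the other members except Cdk1 above 14 or 18 of them. The 20 S phase genes, for comparison, had medians of 0.11, -0.03 and -1.21, so the rise of Cdk1, Plk1, Aurka and Ccnb1 after miR-106b came with smaller values for replication genes, and their lower levels after miR-25, other than that of Ccnb1, came with lower levels of 18 of the 19 replication genes tested.

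Of 64 further genes around the switch, 60 were listed. Past the cutoff were 13 upward and 6 downward of 59 tested after miR-106b, 10 and 8 of 59 after miR-93, and 8 and 22 of 58 after miR-25. Over all tested genes the shares upward and downward were 11.9% and 12.7% after miR-106b, 15.1% and 15.6% after miR-93, and 19.3% and 22.6% after miR-25, so the miR-93 counts were near the background and the upward count after miR-25 was under it. The list of Aurora A and PLK1 cofactors also held Aurkb and Incenp. Of its 5 tested genes, 4 rose past the cutoff after miR-106b, and after miR-93 only Aurkb and Incenp did. After miR-25, 4 were lower while 1, Ajuba, was higher. The list medians were 0.60, 0.27 and -0.83 after miR-106b, miR-93 and miR-25. Tpx2, which activates Aurora A on the spindle, had log2 fold changes of 0.60, 0.27 and -0.90 in the same order, and Bora, which lets Aurora A activate PLK1, had 0.55, 0.22 and -0.83. Aurkb, the kinase of the chromosomal passenger complex, had 0.82, 0.64 and -0.94, and its scaffold Incenp had 0.78, 0.42 and -0.76.

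Among cyclin A, CDK2, CDK subunits and the CDK-activating kinase, 3 of 7 rose after miR-106b, 1 after miR-93 and none after miR-25, with 0, 0 and 3 lower. The shares of all tested genes were 11.9%, 15.1% and 19.3% upward and 12.7%, 15.6% and 22.6% downward. Ccna2, cyclin A2, had log2 fold changes of 0.41, 0.41 and -1.24 and an RPKM of 14.3, 14.3, 4.55 and 10.8 in the order miR-106b, miR-93, miR-25 and cel-miR-67. Cyclin F (Ccnf) had 0.48, 0.13 and -1.43, and Cks1b, a small CDK-binding subunit, had 0.73, 0.28 and -0.31. Ccnh, the cyclin of the kinase that activates CDK1, had -0.16, -0.16 and -1.17.

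The Greatwall kinase and PP2A-B55, the phosphatase that reverses CDK1 phosphorylation, showed no member past the cutoff upward with any mimic and 1, 2 and 3 of 10 downward, near the shares of 12.7%, 15.6% and 22.6% over all tested genes. Ppp2r2c, the 11th listed gene, had an RPKM under 1.0 in every library, with 0.90 after miR-25 and 0.17 in the control (log2 fold change 2.39, 1.22 to 3.78), and was not tested. Mastl, the Greatwall kinase that restrains PP2A-B55 at entry, had an RPKM of 4.801 after miR-106b, 3.01 after miR-93, 2.39 after miR-25 and 5.48 in the control. Its log2 fold changes were -0.19 (-0.34 to -0.04), -0.86 (-1.04 to -0.69) and -1.20 (-1.39 to -1.01), so after miR-93 this activating kinase was lower while Ccnb1, Plk1 and Aurka were higher. The B55 subunits Ppp2r2b and Ppp2r2d had -1.21 and -0.61 after miR-25, and the catalytic subunit Ppp2cb had -0.24, -0.57 and 0.34 after miR-106b, miR-93 and miR-25.

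Of the 16 checkpoint brakes tested, 2 rose and 3 were lower after miR-106b, 3 and 3 after miR-93, and 6 and 5 after miR-25. Over all tested genes, 11.9% passed upward and 12.7% downward after miR-106b, 15.1% and 15.6% after miR-93, and 19.3% and 22.6% after miR-25. The miR-106b and miR-93 counts were thus near the background. Gadd45g, a stress-induced gene whose family can inhibit CDK1, had an RPKM of 41.5, 17.2, 41.9 and 79.1 in the order miR-106b, miR-93, miR-25 and cel-miR-67. It was lower with all 3 mimics, with log2 fold changes of -0.93, -2.20 and -0.92. Ywhah, a 14-3-3 protein of the family that holds phosphorylated CDC25 in the cytoplasm, was higher with all 3, at 1.05, 1.08 and 1.77. Cdkn1a, the CDK inhibitor p21, had 0.04 after miR-106b, -0.45 after miR-93 and 1.71 after miR-25, where its RPKM was 31.5 against 9.61 in the control. Clspn, the claspin needed to activate CHK1, had -1.41 after miR-25.

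Shares of all tested genes were 11.9% and 12.7%, 15.1% and 15.6%, and 19.3% and 22.6%. Against these stand 11 genes of transcription factors and their complexes that act on G2/M promoters. Of the 11 genes, 2 rose and 1 was lower after miR-106b, 0 and 2 after miR-93, and 1 and 4 after miR-25, where 10 were tested. The gene not tested was Foxm1, a transcription factor of G2/M genes, whose RPKM of 0.93 after miR-25 was under the filter. Its log2 fold changes were 0.43, 0.36 and -1.37 (-1.69 to -1.07 for the last), so the filter left a lower gene out of that count. Mybl2 (B-MYB), which binds CHR-bearing promoters with the MuvB complex, had log2 fold changes of 0.42, 0.09 and -1.14, and the MuvB subunit gene Lin52 had -0.47, -0.73 and 0.14. The NF-Y subunits, which bind the CCAAT box seen before Cdk1, Ccnb1 and Plk1, moved apart after miR-25, with Nfyc at -0.88 and Nfyb at 0.63.

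Of the 10 genes for the degradation of cyclin B, WEE1 and CDC25, 2 rose and 1 was lower after miR-106b, 4 and 1 after miR-93, and 0 and 3 after miR-25. For all tested genes these shares were 11.9% and 12.7%, 15.1% and 15.6%, and 19.3% and 22.6%. Cdc20, the activator of the anaphase-promoting complex that ends the switch, had 0.71, 0.54 and -0.94, and its ubiquitin-conjugating enzyme Ube2c had 0.91, 0.45 and -0.95. Fbxo5 (EMI1), which inhibits that complex, had 0.33, 0.19 and -1.29, so activator and inhibitor had the same sign with each mimic. Anapc11, a catalytic subunit of the complex, had -0.54, -0.66 and -0.16.

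**Figure D4:**
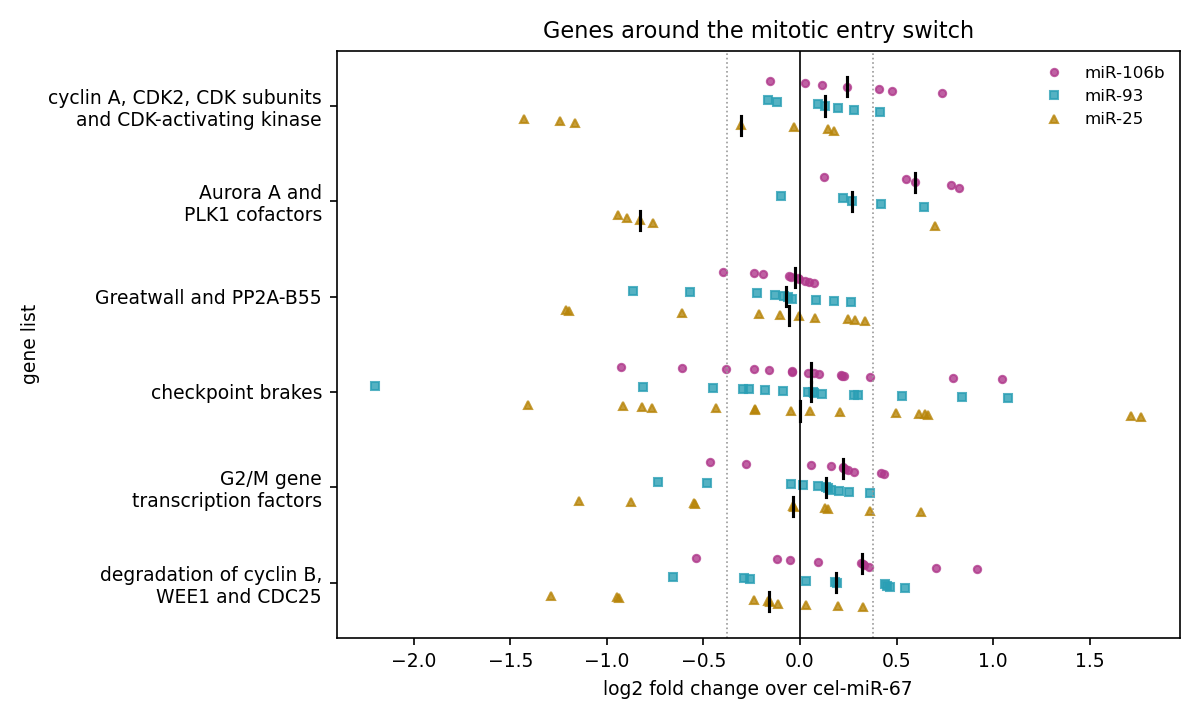
Log2 fold change over cel-miR-67 of the tested genes in 6 lists around the mitotic entry switch, 1 point per gene and mimic; black bars are list medians and dotted lines the 1.3-fold cutoff. The list of Aurora A and PLK1 cofactors, which also held Aurkb and Incenp, had medians of 0.60 after miR-106b, 0.27 after miR-93 and -0.83 after miR-25. The checkpoint brakes ran from -2.20 to 1.08 after miR-93 around a median of 0.05.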

How the data were processed

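RNA of 4 cardiomyocyte cultures was sequenced (TruSeq RNA kit, 2 µg total RNA). The authors aligned reads to Rnor 6.0 with STAR 2.7, rounded gene counts and deposited RPKM values computed with edgeR. The program that counted reads is not given in the sources used here. RPKM values are no counts, so no count test was run. Whole reads, within 0.0001, were recovered from the RPKM steps for all 15731 genes as the smallest numbers that give each gene's ratios and a whole length, a procedure tested on simulated data. True reads could be a multiple, which would make the counting intervals too wide. The study's methods state fewer reads per sample than were recovered here. Error from rounding the counts or from reads shared between genes is not in the intervals.

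Fold changes are log2 ratios of deposited RPKM without a pseudocount. Genes with RPKM above 1.0 in both libraries were counted past 1.3-fold, the cutoffs of the study's results text (its methods give an RPKM of 2.0). Fold changes have 95% Clopper-Pearson intervals, levels exact Poisson intervals, and within-library ratios exact conditional odds-ratio intervals. From each list around the switch at most 4 genes were named, those with the largest absolute fold change among genes with RPKM above 1.0 in all 4 libraries and past 1.3-fold at least once, plus the 5 nearest patterns of Ccnb1, Cdk1 and Wee1. Ajuba, Tnni3, Ppp2r2c, Foxm1 and the ratios to Mki67 were added after their values were seen. The members and lists were chosen with earlier results of these data known. Alternatives were fold cutoffs of 1.5 and 2, an RPKM of 2.0 or no filter, pseudocounts of 0.1 and 1, calls by the counting interval, centring on the median gene, scaling to reads on listed genes, the median of the promoting members and, after seeing the data, leaving out Ccnb1. Promoter and miRNA sequences were matched by symbol in RefSeq tables. Scripts ran in Python 3.11.15 with pandas 2.3.3, scipy 1.17.1, numpy 2.4.6 and, for plots, matplotlib 3.10.9.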

Additional observations from a re-analysis of the deposited data

How the results depend on the processing

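No paired analysis was possible because each mimic had 1 library, and for the same reason no library could be left out. Of the 27 member log2 fold changes, none that passed the cutoff changed sign under a pseudocount, centring on the median gene or scaling to reads on listed genes. At a 2-fold cutoff the members past it were 2 upward and 0 downward after miR-106b (4 and 1 at 1.3-fold), 1 and 0 after miR-93 (3 and 1) and 1 downward after miR-25 (6), and all genes past it upward and downward were 139 and 150 after miR-106b (1339 and 1437), 192 and 289 after miR-93 (1707 and 1762) and 360 and 561 after miR-25 (2166 and 2532). At a 1.5-fold cutoff the genes around the switch past it after miR-106b were 8 upward and 2 downward (13 and 6). After miR-93 they were 3 and 5 (10 and 8), and all genes were not counted at this cutoff. The difference of the promoting and inhibiting members after miR-93 was 0.67 with the median of the promoting members (0.84 with the mean). Leaving out Ccnb1, an alternative chosen after seeing the data, gave 0.82 after miR-106b (1.05), 0.62 after miR-93 and 0.08 after miR-25 (0.17). Scaling to reads on listed genes shifted all log2 fold changes by 0.08, 0.15 and 0.15 after miR-106b, miR-93 and miR-25. Under it Cdk1 after miR-93 (0.47) and Cdc25c after miR-106b passed the cutoff, Wee1 after miR-93 was at -0.54 and Cdc25a after miR-93 at -0.02, and values near 0 of Ccnb1, Cdc25a, Cdc25c and Pkmyt1 changed sign. With RPKM above 2.0 in both libraries, 4 members instead of 6 passed downward after miR-25, and of all genes 2121 instead of 2532. Depth limits Pkmyt1 and Cdc25b most, at no more than 231 reads in a library. Where reads, not cultures, are the only repeats, differences between cultures treated alike are unknown.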
